A study of Mus musculus with 12 samples.

Results

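The ligands followed here were 10 secreted or membrane-bound signals, namely the CXC chemokines Cxcl1, Cxcl2 and Cxcl16, the CX3C chemokine Cx3cl1, the CC chemokines Ccl2, Ccl3, Ccl4, Ccl6 and Ccl9, and the growth factor Csf1. They were chosen by name, as the rows whose gene symbol equals a member, and all 10 were present in both count tables, among 50421 gene symbols that the tables share. The tables hold RNA-Seq of 12 libraries in 4 groups of 3 from wild-type male C57BL/6J mice with acute kidney injury, made by clamping the renal pedicles (ischemia/reperfusion injury, IRI), with cells taken 24 hours later. Renal tubular epithelial cells (TECs) came from the kidney, where the methods describe a sort for CD45-negative, Prominin-1-positive cells, and neutrophils (PMN) came from peripheral blood, whose sort the methods do not describe. In each cell type, 3 libraries came from mice given glutamine as an alanyl-glutamine dipeptide and 3 from mice given vehicle (saline). Every group had IRI, so none shows the uninjured level.

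Chemokines are small proteins that guide leukocytes along a gradient by binding G protein-coupled receptors, and their family names follow the spacing of the first cysteines. Cxcl1 and Cxcl2 act on Cxcr2 and draw neutrophils, Ccl2 acts on Ccr2 and draws monocytes, and Ccl3, Ccl4, Ccl6 and Ccl9 act on receptors such as Ccr1. Cxcl16 and Cx3cl1 are made as transmembrane proteins that can be shed by the proteases Adam10 and Adam17. Csf1 is the growth factor that keeps monocytes and macrophages alive through its receptor Csf1r. In the injured kidney, neutrophils and then monocytes enter the tissue around the damaged tubules, and both tubular cells and arriving leukocytes are known sources of such signals.

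The members lie in a few places of the mouse genome (GENCODE M21 on GRCm38). Cxcl1 (chr5:90891241-90893115, plus strand, 4 exons) and Cxcl2 (chr5:90903871-90905938, plus strand, 4 exons) are neighbours, 10.8 kb apart. Ccl9 (chr11:83572919-83578636), Ccl6 (chr11:83587882-83593087) and Ccl3 (chr11:83647844-83649355), all on the minus strand, and Ccl4 (chr11:83662584-83664683, plus strand) lie within 91.8 kb. Ccl2 (chr11:82035571-82037453, plus strand) and Cxcl16 (chr11:70453983-70459984, minus strand) are elsewhere on the same chromosome. Cx3cl1 is at chr8:94772009-94782427 on the plus strand and Csf1 at chr3:107741048-107760469 on the minus strand. Genes on the opposite strand overlap Cxcl16 (Zmynd15), Ccl2 (Gm17268) and Ccl6 (E230016K23Rik), and because the sources do not say whether counting used the strand, reads of such partners may not be told apart. The estimated counts of Ccl9 were not exactly whole in any of the 6 TEC libraries and those of Cxcl16 in 1 of 6, and the source of these fractions was not tested.

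The start regions of 3 members carry the same sequence element and are shown as a feature that these members share. Their TEC levels per length were far apart, with Cxcl1 and Cxcl2 highest and Csf1 9th of the 10 members. RefSeq windows (GRCm38.p6, 250 bases before to 50 after the start) were found for 7 members, and none was matched for Cxcl16, Ccl2 and Ccl4. A form of the NF-kB site was searched on both strands, namely the 10 capital letters shown for Cxcl1 with any base at the fifth position. It was present in the windows of Cxcl1, Cxcl2 and Csf1 and in 0.411% of all 32851 windows. Capitals mark the match, which runs from -71 to -62 in Cxcl1, from -97 to -88 in Cxcl2 and, read on the opposite strand, from -154 to -145 in Csf1, counted from the start of transcription. The stretches are chr5:90891115-90891214 and chr5:90903769-90903868 on the plus strand and chr3:107760600-107760659 on the minus strand, each written 5′ to 3′ along its gene.
Cxcl1: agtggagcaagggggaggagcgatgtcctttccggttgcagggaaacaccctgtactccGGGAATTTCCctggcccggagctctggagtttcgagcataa
Cxcl2: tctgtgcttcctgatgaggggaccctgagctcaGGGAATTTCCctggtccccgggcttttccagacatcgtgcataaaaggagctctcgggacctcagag
Csf1: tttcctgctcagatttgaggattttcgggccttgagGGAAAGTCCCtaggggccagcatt
In the 10 bases flanking the match, 5 on each side, Cxcl1 and Cxcl2 were identical at 7. A match of letters is a description of these windows and does not show that a factor bound there.

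Levels are given as CPM, counts scaled to a common library size after edgeR's TMM scaling, which was done separately in each table. TEC libraries held 5397370 to 10223461 counts and PMN libraries 20225254 to 21878452, so that 3 counts correspond to 0.269 to 0.603 CPM in TECs and to 0.137 to 0.158 CPM in PMN. The labels were checked against markers. In TECs Prom1 lay between 64.6 and 83.5 CPM, the proximal tubule gene Slc34a1 between 1298 and 2711 CPM and the leukocyte gene Ptprc between 0.102 and 2.74 CPM. Erythroid transcripts were also present there, with 6 genes summing to 802 to 6709 CPM. The highest sum was in TEC glutamine replicate 2, beside 6654 CPM for 15 tubular epithelial genes. In PMN the neutrophil genes S100a8 and Cxcr2 lay between 6608 and 28919 CPM and between 465 and 1126 CPM. Macrophage genes were also present there, with C1qa between 287 and 2572 CPM. The summed level of 6 genes listed for B cells, Cd74 among them, lay between 4155 and 10793 CPM in PMN. The summed level of 9 T and NK cell genes lay between 0.0952 and 21.7 CPM in PMN, with Cd3e at 0 in every library and Cd3d between 0.0952 and 9.10 CPM. PMN libraries were uneven. Of 6370 genes that reached 1000 counts in a PMN library, 41.7% had 10 counts or fewer in another, compared with 0.105% of 1902 such genes in TECs. PMN vehicle replicate 2 stood apart, with 2883 CPM summed over 10 endothelial genes against 2.90 to 120 CPM in the other PMN libraries. PMN vehicle replicate 1 stood apart too, with 1410 CPM summed over 15 tubular epithelial genes (Umod at 1025 CPM) against 43.9 to 106 CPM in the other PMN libraries. TEC vehicle replicate 3 and glutamine replicate 2 held the most neutrophil marker RNA of the TEC libraries.

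Most of these transcripts were far more abundant in PMN than in TECs. All members but Cx3cl1 were higher in every PMN library than in every TEC library (9 of 10 members, against 8.98% of 15902 genes tested in either table, and 31.8% of genes with PMN below TECs). The ratio of PMN to TEC mean level (n = 6 each) ran from 4.45-fold for Cxcl1 and 9.50-fold for Cxcl16 through 73.6-fold for Ccl9, 81.8-fold for Cxcl2 and 86.9-fold for Csf1 to 418-fold for Ccl3, 439-fold for Ccl6, 523-fold for Ccl2 and 1095-fold for Ccl4. Without TEC vehicle replicate 3, which held the most Ccl4 and Ccl6 of the TEC libraries, the ratio was 1967-fold for Ccl4 and 730.3-fold for Ccl6, the latter then above the 519.9-fold of Ccl2. The 10 genes took 1.36% to 2.35% of all counts in PMN libraries and 0.0216% to 0.0285% in TEC libraries. Cell type, tissue of origin and sequencing run differed together between the tables, and these cannot be told apart, so levels across the tables are a description with no test. Within bulk libraries, more RNA per cell and more cells of a type cannot be told apart either.

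**Figure D1:**
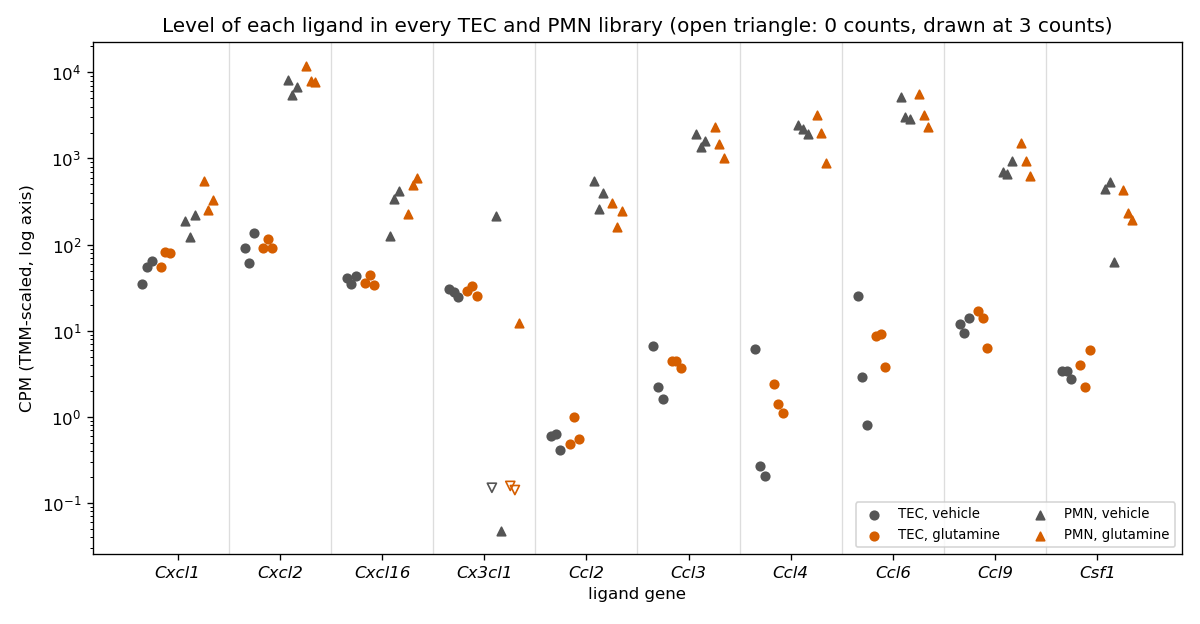
Level of each of the 10 ligands in every library, as TMM-scaled CPM on a log axis, with circles for TECs, triangles for PMN, grey for vehicle and orange for glutamine. Triangles lie above all circles for 9 ligands, and for Cx3cl1 most PMN libraries lie far below the TEC libraries, with 1 PMN library at 216 CPM.

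Cxcl2, a potent neutrophil attractant, was the most abundant ligand in PMN. It had 8075, 5480 and 6815 CPM in PMN vehicle replicates 1, 2 and 3 and 11940, 7932 and 7630 CPM in PMN glutamine replicates 1, 2 and 3. It ranked 8th by mean CPM of the 10130 genes tested in PMN, and made up 38.6% to 55.1% of the counts of the 10 ligands. Glutamine replicates 2 and 3 lay between vehicle replicates 3 and 1, and glutamine replicate 1 lay above all others. The log2 fold change of glutamine over vehicle was 0.43 (standard error, SE, 0.23; adjusted p = 0.9999). These and all later p-values of this kind came from edgeR's quasi-likelihood fit and were adjusted over all genes of the table by the Benjamini-Hochberg method. In TECs Cxcl2 had 91.2, 60.5 and 137 CPM in vehicle replicates 3, 4 and 5 and 90.1, 116 and 90.9 CPM in glutamine replicates 1, 2 and 3. The TEC groups overlapped, with the lowest and the highest library both from vehicle mice (log2 fold change 0.04, SE 0.28, adjusted p = 0.968, edgeR).

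Cxcl1, the close relative of Cxcl2, was the only member whose treatment groups did not overlap, and that in PMN. It had 189, 123 and 218 CPM in PMN vehicle replicates 1, 2 and 3 and 543.8, 249 and 327 CPM in PMN glutamine replicates 1, 2 and 3. Every glutamine library was above every vehicle library, which held for 5.87% of the 10130 genes tested in PMN. The vehicle mean was 176 ± 48.7 CPM and the glutamine mean 373 ± 153 CPM (SD, n = 3). The log2 fold change of 1.08 (SE 0.43, 95% interval 0.06 to 2.10) had an unadjusted p = 0.0403 and an adjusted p = 0.9999 in edgeR, so it did not pass. Over the alternatives the adjusted p lay between 0.559 and 1, and the fold change stayed above 0, from 0.68 to 1.26 when each library was left out, vehicle replicates 1 and 2 included. In TECs Cxcl1 had 35.02, 55.2 and 63.8 CPM in vehicle replicates 3, 4 and 5 and 55.6, 80.9 and 79.9 CPM in glutamine replicates 1, 2 and 3. Glutamine replicate 1 lay among the vehicle libraries and the other two glutamine libraries above them (log2 fold change 0.49, SE 0.27, unadjusted p = 0.0920, adjusted p = 0.462, edgeR). Left-out libraries moved that value between 0.27 and 0.67.

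**Figure D2:**
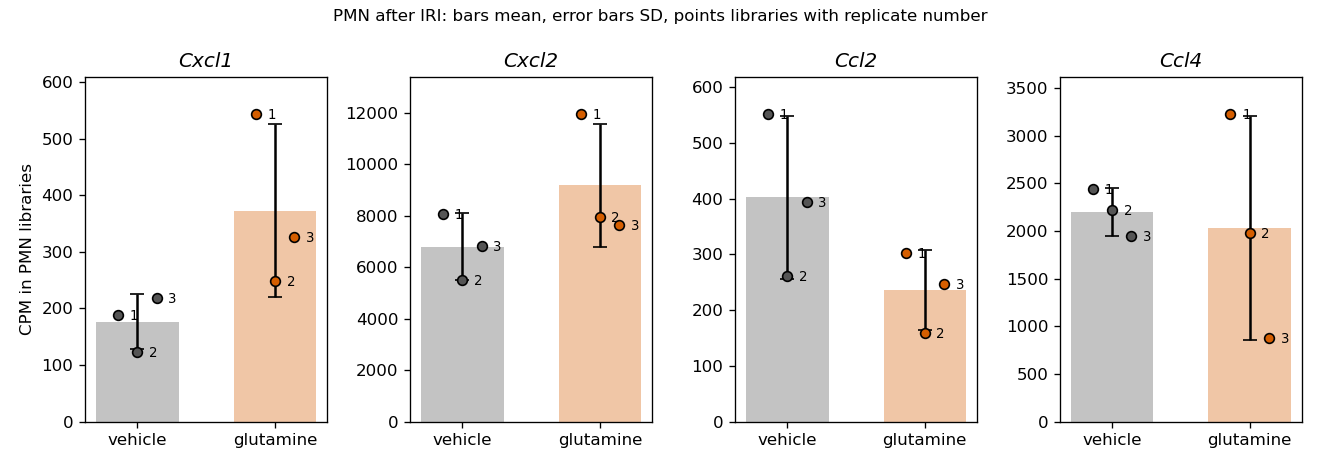
Cxcl1, Cxcl2, Ccl2 and Ccl4 in the PMN libraries, in CPM on linear axes from 0, with bars for the group mean, error bars for the SD and points for the libraries with their replicate number. The glutamine points of Cxcl1 all lie above the vehicle points, at 249 CPM or more against 218 CPM or less, and the groups overlap for the other 3 ligands.

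The 2 transmembrane ligands differed from each other in where they were found. Cxcl16, the ligand of Cxcr6, had the smallest ratio of highest to lowest library of the members in TECs, 1.32-fold over 6 libraries. It had 40.8, 34.9 and 43.1 CPM with vehicle and 36.0, 44.4 and 33.6 CPM with glutamine there. In PMN it had 127, 342 and 418 CPM with vehicle and 227, 497 and 600 CPM with glutamine. The spread within each PMN group was larger than the gap between their means of 296 ± 151 and 441 ± 193 CPM (SD, n = 3). The log2 fold change was -0.06 (SE 0.22, adjusted p = 0.929) in TECs and 0.58 (SE 0.55, adjusted p = 0.9999) in PMN, from edgeR. The PMN libraries with the lowest Cxcl16, vehicle replicate 1 and glutamine replicate 1, also had the lowest summed level of 12 monocyte and macrophage genes (5454 and 5985 CPM against 6483 to 12141 CPM in the others), and the part of such cells in the level of Cxcl16 was not tested.

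Cx3cl1, known as fractalkine, the ligand of Cx3cr1, was the member with a higher level in TECs than in most PMN libraries. It had 30.2, 28.0 and 24.8 CPM in the TEC vehicle libraries and 29.1, 33.1 and 25.4 CPM in the TEC glutamine libraries, a 1.34-fold range in which the groups overlapped (log2 fold change 0.08, SE 0.23, adjusted p = 0.916, edgeR). In PMN it had 0, 4730 and 1 counts with vehicle and 0, 0 and 246 counts with glutamine. It therefore failed the expression filter in PMN and was not tested there. The 4730 counts, 216 CPM, came from vehicle replicate 2, which also held Kdr at 619 CPM, Emcn at 347 CPM and Il34 at 57.2 CPM, endothelial and kidney transcripts that were at 0 in at least 4 of the other 5 PMN libraries. With that library the PMN mean was 1.34 times the TEC mean, and without it the log2 ratio of PMN to TEC was -3.52. TECs themselves held all 10 endothelial markers, summing to 389 to 645 CPM, and the part of endothelial cells in the TEC level of Cx3cl1 was not tested.

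Among the CC chemokines, Ccl2, also called MCP-1, was close to 0 in TECs. It had 4 to 7 counts in each TEC library, 0.408 to 1.004 CPM, and did not pass the filter there. In PMN it had 552, 261 and 394 CPM with vehicle and 302, 159 and 248 CPM with glutamine. Glutamine replicates 2 and 3 lay below all vehicle libraries and glutamine replicate 1 lay between vehicle replicates 2 and 3. The log2 fold change of -0.77 (SE 0.41, 95% interval -1.75 to 0.21) had an unadjusted p = 0.106 and an adjusted p = 0.9999 in edgeR, and it stayed between -1.01 and -0.51 when each library was left out, vehicle replicates 1 and 2 included.

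Ccl3 and Ccl4, the macrophage inflammatory proteins, were both high in PMN and close to 0 in TECs. Ccl3 had 1920, 1345 and 1606 CPM in PMN with vehicle and 2302, 1452 and 1021 CPM with glutamine. Ccl4 had 2442, 2217 and 1944 CPM with vehicle and 3228, 1984 and 879 CPM with glutamine. For both, glutamine replicate 1 was the highest and glutamine replicate 3 the lowest of the 6 libraries, and the group means were within 1 SD of each other. The summed level of 14 neutrophil genes was likewise highest in glutamine replicate 1 (82494 CPM) and lowest in glutamine replicate 3 (29076 CPM), which had the highest sum of macrophage genes. Over the 6 PMN libraries r with the neutrophil sum was 0.958 for Ccl3 and 0.831 for Ccl4, and r with the macrophage sum was -0.673 and -0.805, and the part of these cells was not tested. Their log2 fold changes were -0.03 (SE 0.32) for Ccl3 and -0.12 (SE 0.43) for Ccl4, each with an adjusted p = 0.9999 from edgeR. In TECs Ccl3 had 67, 25 and 16 counts with vehicle and 37, 22 and 34 with glutamine, and Ccl4 had 63, 3 and 2 counts with vehicle and 20, 7 and 10 with glutamine. Vehicle replicate 3 held most of the vehicle counts of both. The log2 fold change of Ccl4 in TECs was -0.44 (SE 1.13, adjusted p = 0.8997, edgeR) with that library and 2.71 (adjusted p = 0.540) without it, and that of Ccl3 was 0.26 (SE 0.61, adjusted p = 0.887) with it and 1.10 (adjusted p = 0.623) without it. Leaving out vehicle replicate 5 instead gave -0.08 for Ccl3.

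Ccl6 and Ccl9, neighbouring genes whose products bind Ccr1, were also higher in PMN. Ccl6 was the second most abundant member in PMN by CPM, with 5231, 3023 and 2880 CPM with vehicle and 5614, 3211 and 2305 CPM with glutamine, and its group means were 3711 ± 1318 with vehicle and 3710 ± 1710 with glutamine, in CPM (SD, n = 3). The glutamine libraries enclosed the range of the vehicle libraries. In TECs Ccl6 had 257, 32 and 8 counts with vehicle and 72, 46 and 35 with glutamine, a 31.1-fold range in CPM. Its TEC log2 fold change turned from -0.43 (SE 0.91, adjusted p = 0.877, edgeR) to 1.94 (adjusted p = 0.490) without vehicle replicate 3. Ccl9 had 702, 657 and 926 CPM in PMN with vehicle and 1511, 933 and 627 CPM with glutamine, so that glutamine mice gave both its highest and its lowest level (log2 fold change 0.43, SE 0.36, adjusted p = 0.9999, edgeR). Over the PMN libraries, r with the neutrophil sum was 0.803 for Ccl6 and 0.860 for Ccl9. The r with the macrophage sum was -0.810 and -0.303, and the part of these cells was not tested. Ccl9 was steadier than Ccl6 in TECs, at 12.03, 9.40 and 13.96 CPM with vehicle and 17.1, 14.1 and 6.25 CPM with glutamine (log2 fold change 0.07, SE 0.39, adjusted p = 0.955, edgeR).

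Csf1 was low in TECs, at 3.45, 3.40 and 2.75 CPM with vehicle and 3.96, 2.21 and 6.03 CPM with glutamine (log2 fold change 0.36, SE 0.54, adjusted p = 0.813, edgeR). In PMN it had 442, 535 and 62.8 CPM with vehicle and 429, 232 and 195 CPM with glutamine, and the vehicle libraries alone covered the whole range, 8.53-fold from lowest to highest. Its PMN log2 fold change of -0.28 (SE 0.75, adjusted p = 0.9999, edgeR) became 0.17 without vehicle replicate 2, the library with the endothelial transcripts. Il34, the other ligand of Csf1r, showed the opposite placement, at 108 to 162 CPM in every TEC library and at 0 in 5 of 6 PMN libraries.

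Across all members, no ligand passed the threshold for a change with glutamine in either cell type. In TECs 9 members passed the expression filter, 6 with a fold change above 0 and 3 below, and 0 had an adjusted p below 0.05 or an unadjusted p below 0.05 in edgeR (0.0% of 14734 genes called; 1878 genes or 12.7% at the unadjusted threshold, 7.23% higher). Their median log2 fold change was 0.07, beside 0.01 over all genes tested. None of the 10 members had TEC groups that did not overlap, against 9.01% of genes with glutamine above and 9.81% with glutamine below vehicle. In PMN 9 members passed the filter, 4 above and 5 below 0, and 0 had an adjusted p below 0.05 (0.0% of 10130 genes called). At an unadjusted p below 0.05 there was 1 member, Cxcl1, which was higher, beside 346 genes or 3.42% of all genes (2.04% of all genes being higher). Over all genes DESeq2's Wald test called 190 in TECs and 304 in PMN and limma-voom 0 in both, and no member was among the calls of any of these. The 95% intervals of Cxcl16, Cx3cl1 and Cxcl2 in TECs lay within -0.59 to 0.66 on the log2 scale, whereas those of Ccl4 and Ccl6 reached from -2.93 to 2.05 and from -2.43 to 1.57. In PMN the intervals ran from -0.11 to 0.97 for Cxcl2 and, at the widest, from -2.06 to 1.497 for Csf1, so a missing call there does not show that a ligand did not change.

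**Figure D3:**
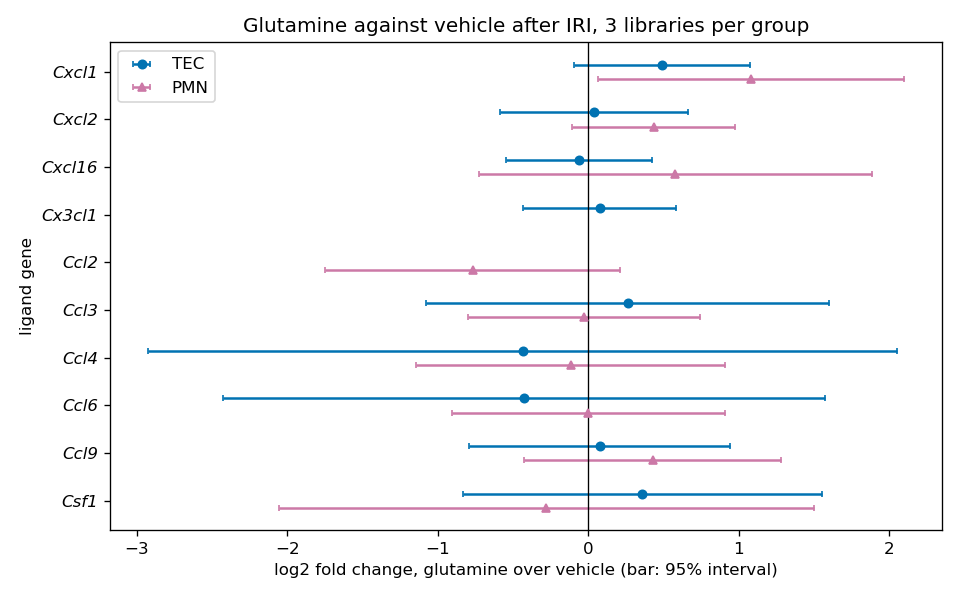
Log2 fold change of each tested ligand with glutamine over vehicle, with circles for TECs and triangles for PMN and bars for the 95% interval from edgeR. The interval of Cxcl1 in PMN, 0.06 to 2.10, is the only one that does not include 0, and Ccl2 in TECs and Cx3cl1 in PMN were not tested.

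Whether glutamine acted differently in the 2 cell types was tested for the 8 members that passed the filter in both. The difference of the mean log2 CPM changes was compared with all 400 relabellings of treatment within the tables, an exact two-sided permutation test whose smallest p is 0.005. The test is exact for no glutamine effect in either cell type, and not for equal effects other than 0. It gave p-values between 0.385 for Cxcl16 and 0.95 for Csf1, and adjusted values of 0.968 or more over the 8950 genes tested in both tables. The difference was -0.53 for Cxcl1 (exact permutation p = 0.485), with a change of 0.51 in TECs and 1.04 in PMN. No gene passed this test at an adjusted p below 0.05 (0.0% of 8950 genes; 453 genes or 5.06% at an unadjusted p below 0.05). To pass it would take more than 895 genes at the smallest p, or still more at larger ones, and 62 genes reached it, so the count of 0 does not show that effects were alike.

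TEC libraries contained neutrophil transcripts, and the levels of the ligands were set beside them. The sum of S100a8 and S100a9 was 133, 40.0 and 10.8 CPM in TEC vehicle replicates 3, 4 and 5 and 82.4, 174 and 26.6 CPM in glutamine replicates 1, 2 and 3, with 9 or 10 of 14 neutrophil genes detected per library and Elane at 0 throughout. For each ligand, the ratio to S100a8 plus S100a9 in the PMN libraries was multiplied by these sums. Cxcl1, Cxcl2, Cxcl16, Cx3cl1 and Ccl9 were above the level from the highest PMN ratio in 6 of 6 TEC libraries, and Csf1 in 5 of 6. At the mean PMN ratio, the neutrophil-scaled level was 0.168% to 3.76% of the measured Cxcl1, 2.24% to 42.8% of the measured Cxcl2 and 2.31% to 36.9% of the measured Ccl9. For Ccl2, Ccl3 and Ccl6 the scaled level varied around the measured one, from 29.5% to 249.9% of it for Ccl2 (median over the TEC libraries 131%), from 35.8% to 212% for Ccl3 (median 98.3%) and from 65.1% to 233% for Ccl6 (median 141%). Ccl2 and Ccl3 were above the level from the highest PMN ratio in 2 of 6 TEC libraries each and Ccl6 in 1 of 6. Ccl4 was below the level from the mean PMN ratio in every TEC library, with a median of 299%. Blood neutrophils were the only reference for this ratio, and the part of neutrophil RNA in the TEC levels was not tested otherwise.

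**Figure D4:**
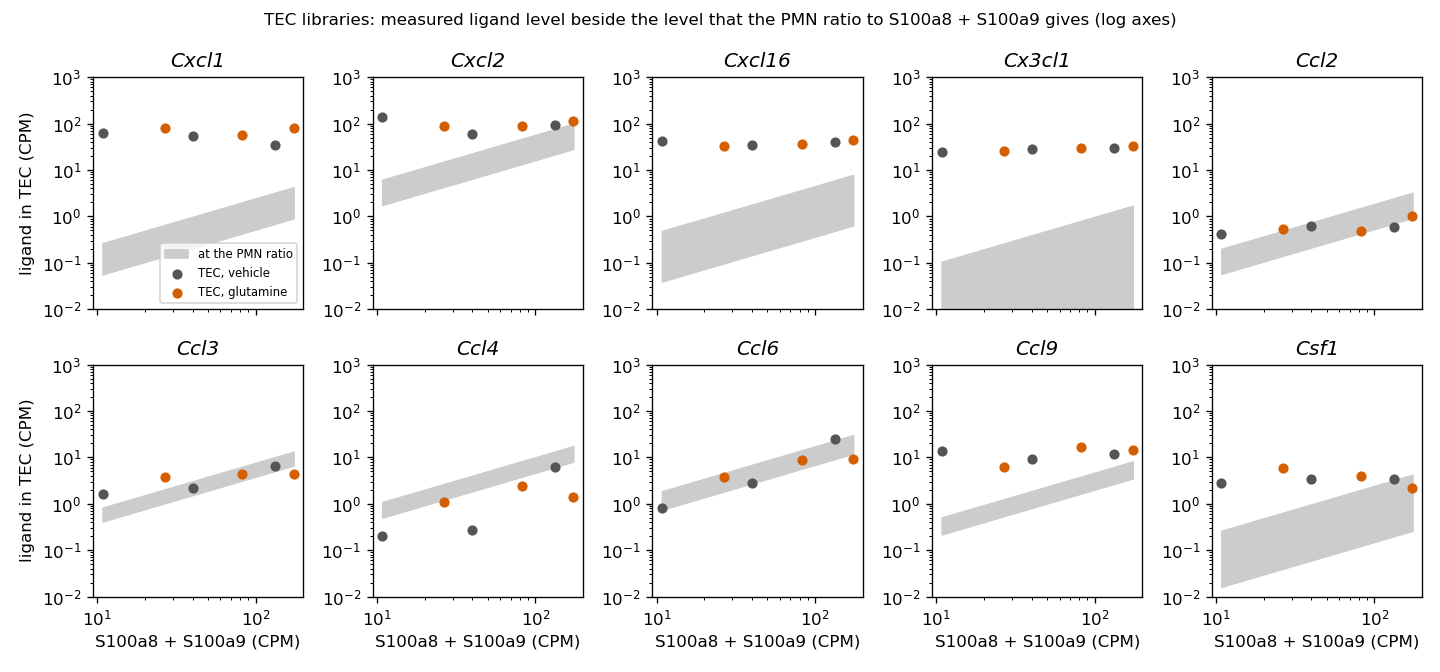
Measured level of each ligand in the 6 TEC libraries (points, CPM) against the summed CPM of S100a8 and S100a9 in the same library, both on log axes. The grey band is the level given by the lowest to highest PMN ratio of the ligand to that sum. Cxcl1, Cxcl2, Cxcl16, Cx3cl1 and Ccl9 lie above the band in 6 of 6 libraries, whereas Ccl2, Ccl3 and Ccl6 mostly lie in or near it and Ccl4 mostly lies below it.

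Levels were compared between genes per kilobase of the longest annotated transcript, so the order depends on that length and not on the isoforms present. By CPM alone, the TEC mean of Cxcl2 (97.6) was above that of Cxcl1 (61.7). Per kilobase, the order in TECs was Cxcl1 (64.8 ± 18.2 CPM per kb, SD, n = 6), Cxcl2 (52.5 ± 14.04), Cxcl16 (14.4 ± 1.69) and Cx3cl1 (8.58 ± 0.937). Cxcl1 and Cxcl2 overlapped, whereas all 6 libraries of Cxcl2 were above those of Cxcl16 and all of Cxcl16 above those of Cx3cl1. Then came Ccl6 (5.87 ± 6.19), Ccl3 (5.02 ± 2.32), Ccl9 (4.03 ± 1.27), Ccl4 (2.93 ± 3.41), Csf1 (0.871 ± 0.317) and Ccl2 (0.750 ± 0.257), and each of these overlapped the next. Without TEC vehicle replicate 3, Ccl6 had 3.53 ± 2.57, below Ccl3 and Ccl9, and Ccl4 had 1.63 ± 1.37 (SD, n = 5). In PMN the order was Cxcl2 (4292 ± 1164 CPM per kb), Ccl4 (3205 ± 1160), Ccl6 (2577 ± 948) and Ccl3 (2099 ± 589), which overlapped in turn, and Ccl3 was above Ccl2 (392 ± 169) in every library with no overlap. Below these were Ccl9 (297 ± 110), Cxcl1 (288 ± 155), Cxcl16 (137 ± 64.5), Csf1 (75.7 ± 43.1) and Cx3cl1 (11.5 ± 26.3), with overlapping neighbours. Ccl4, Ccl6 and Ccl3 thus stood above Cxcl1 in PMN and below it in TECs.

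Receptors of the members were placed mainly in PMN. In TECs 4 of 8 receptor genes passed the filter (2 above and 2 below 0) and in PMN 7 of 8 (5 above and 2 below 0), with 0 called in edgeR in either. Cxcr2, the receptor of Cxcl1 and Cxcl2, had 465 to 1126 CPM in PMN and 37.8 to 88.0 CPM in TECs. The TEC libraries with the most S100a8 and S100a9 were not those with the most Cxcr2: glutamine replicate 2 had 48.6 CPM of Cxcr2 and vehicle replicate 5, with the least, 88.0 CPM. Ccr1, a receptor of Ccl3, Ccl6 and Ccl9, had 736 to 1083 CPM in PMN and at most 1.61 CPM in TECs. Ccr2, the receptor of Ccl2, had 167 to 265 CPM in PMN and at most 1.21 CPM in TECs. Csf1r had 263 to 1001 CPM in PMN and 16.2 to 29.1 CPM in TECs, with a PMN log2 fold change of 0.83 (SE 0.40, adjusted p = 0.9999, edgeR). Cx3cr1, the receptor of Cx3cl1, had 0.100 to 52.0 CPM in PMN and 11.5 to 28.3 CPM in TECs. Cxcr6, the receptor of Cxcl16, was at 0 in all PMN libraries and at no more than 0.102 CPM in TECs, and Cxcr1 was at 0 in all TEC libraries and at no more than 11.5 CPM in PMN.

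Other genes of the pathway also gave no call in edgeR. Of 12 other CXC ligands 7 were tested in TECs (5 above and 2 below 0) and 5 in PMN (4 above and 1 below 0). The most abundant of them in PMN were Cxcl3, a further Cxcr2 ligand, at 618 to 2624 CPM, and the platelet-associated Pf4 at 401 to 1022 CPM. In TECs they were Cxcl12 at 2.37 to 6.36 CPM and Pf4 at 2.15 to 8.03 CPM. At an unadjusted p below 0.05 there was 1 of these ligands in each table, beside 12.7% of all genes in TECs and 3.42% in PMN. Cxcl10 had 1.97, 2.42 and 2.45 CPM with vehicle and 3.12, 5.42 and 10.4 CPM with glutamine in TECs, groups that did not overlap, as for 9.01% of genes (log2 fold change 1.47, SE 0.56, unadjusted p = 0.0229, adjusted p = 0.319, edgeR). Cxcl14 was at 0 in the 3 PMN vehicle libraries and at 39.7, 6.03 and 37.4 CPM with glutamine (unadjusted p = 0.00506, adjusted p = 0.738, edgeR). It passed the expression filter through the glutamine libraries alone, so its p-value is not support for a change. The PMN libraries were also uneven, with many genes high in some libraries and near 0 in others. Of 16 other CC ligands 3 were tested in TECs (2 above and 1 below 0) and 5 in PMN (1 above and 4 below 0). In TECs the most abundant of them were Ccl25 at 1.75 to 8.98 CPM and Ccl27a at 1.54 to 6.63 CPM, and in PMN Ccl7 and Ccl12, the latter at 0 to 46.5 CPM. Ccl7, a monocyte attractant next to Ccl2, had 155, 73.9 and 108 CPM with vehicle and 33.9, 24.0 and 64.6 CPM with glutamine in PMN. Every glutamine library of Ccl7 was below every vehicle library, as for 4.63% of genes tested in PMN, with a log2 fold change of -1.46 (SE 0.70, unadjusted p = 0.0773, adjusted p = 0.9999, edgeR). Ccl7, Cxcl10 and Cxcl14 were chosen for mention with their values known. Of the other CSF ligands, Csf2 was at 0 in all 12 libraries and Csf3 reached 1.68 CPM in TECs and 42.2 CPM in PMN. Of 20 NF-kB feedback and inducer genes, 18 were tested in TECs (12 above and 6 below 0, median log2 fold change 0.04) and 20 in PMN (18 above and 2 below 0, median 0.52, beside 0.00 over all genes). In PMN 4 of the 20 had an unadjusted p below 0.05, all higher with glutamine (2.04% of all genes tested in PMN), and none an adjusted p below 0.05. Their summed level was 23662, 16981 and 20218 CPM in PMN vehicle replicates 1, 2 and 3 and 24685 to 30322 CPM with glutamine, without overlap. Most of the sum came from Il1b, Zfp36 and Nfkbia, with vehicle means of 7270, 4358 and 3479 CPM, so it does not stand for the whole list. How often sums over other gene sets do not overlap was not computed. Vehicle replicate 2, with the lowest sum, was the library with the endothelial transcripts. The sum of the 4 general leukocyte genes was also lowest in that library (3739 CPM), at 5030 to 5647 CPM in the other vehicle libraries and 5542 to 7185 CPM with glutamine, with log2 fold changes of 0.91 for Ptprc, 0.63 for Laptm5, 0.26 for Cd53 and -0.12 for Coro1a. The part of cell makeup in the NF-kB list was not tested. In TECs the most abundant genes of that list were Nfkbia at 230 to 378 CPM and Zfp36 at 94.0 to 175 CPM. In PMN they were Il1b at 5860 to 9805 CPM and Zfp36, which destabilizes cytokine mRNAs, at 3786 to 7421 CPM. Their log2 fold changes were 0.38 and 0.50, with adjusted p = 0.9999 for both from edgeR. Of the sheddases, Adam10 had a TEC log2 fold change of -0.76 (SE 0.28, unadjusted p = 0.0219, adjusted p = 0.314, edgeR), from 20.7 to 34.8 CPM with vehicle to 14.3 to 20.1 CPM with glutamine, groups that did not overlap, as for 9.81% of genes tested in TECs, and Adam17 one of -0.22 (SE 0.28, adjusted p = 0.772). In PMN the log2 fold changes were -0.38 for Adam10 and 1.01 for Adam17, with adjusted p = 0.9999 for both. Of 5 atypical receptors, which bind chemokines without G protein signalling, 2 were tested in each table, Ackr3 and Ccrl2. Ccrl2 had 2471, 1674 and 2320 CPM with vehicle and 3981, 3045 and 3904 CPM with glutamine in PMN, and these groups did not overlap, as for 5.87% of genes tested in PMN (log2 fold change 0.76, SE 0.21, unadjusted p = 0.00918, adjusted p = 0.856, edgeR). Of the other chemokine receptors 4 were tested in TECs (1 above and 3 below 0) and 4 in PMN (4 above 0). The most abundant were Ccr4 at 12.1 to 33.2 CPM and Xcr1 at 8.60 to 25.2 CPM in TECs, and Cxcr4 at 57.8 to 183 CPM and Cxcr5 at 0 to 32.8 CPM in PMN. Xcr1 had a TEC log2 fold change of 1.01 (SE 0.31, unadjusted p = 0.00752, adjusted p = 0.243, edgeR). Its glutamine libraries were all above its vehicle libraries, as for 9.01% of genes tested in TECs. The summed level of 4 general leukocyte genes in TECs did not overlap either, at 5.195 to 10.4 CPM with vehicle and 10.6 to 32.9 CPM with glutamine, and the part of leukocytes in the TEC values of Cxcl10 and Xcr1 was not tested.

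Genes most like each member across libraries were listed by Pearson's r of log2 CPM over the 6 libraries of a table. Over only 6 libraries, r above 0.9 was reached by 22 to 161 of 8415 or 8416 compared genes for each member in TECs. In PMN it was reached by 22 to 140 of 7163, so these are descriptions only. The closest gene in TECs was Pomp to Cxcl1 (r = 0.995), Npc2 to Cxcl2 (r = 0.991), Aldh16a1 to Cxcl16 (r = 0.983), Psme1 to Cx3cl1 (r = 0.988), Tmem254a to Ccl3 (r = 0.983), Irx3 to Ccl4 (r = 0.966), Laptm4b to Ccl6 (r = 0.998), Cdc42ep2 to Ccl9 (r = 0.989) and Kcnj15 to Csf1 (r = 0.990). In PMN it was Rassf5 to Cxcl1 (r = 0.996), Selenon to Cxcl2 (r = 0.985), Maf to Cxcl16 (r = 0.985), Nhp2 to Ccl2 (r = 0.968), Retnlg to Ccl3 (r = 0.995), Ing4 to Ccl4 (r = 0.997), Fam133b to Ccl6 (r = 0.984), Prelid3b to Ccl9 (r = 0.979) and Rab11b to Csf1 (r = 0.986). Among pairs of members in PMN, r was above 0.9 for Ccl3 with Ccl6 (r = 0.930), Cxcl1 with Cxcl2 (r = 0.905) and Ccl3 with Ccl4 (r = 0.904), each pair lying in 1 gene cluster, out of 36 pairs. In TECs it was above 0.9 for Ccl3 with Ccl6 (r = 0.970), Ccl3 with Ccl4 (r = 0.968) and Ccl4 with Ccl6 (r = 0.942), again out of 36 pairs. These genes also varied with the summed level of the neutrophil markers in the same TEC libraries (r = 0.911 for Ccl6, 0.843 for Ccl3 and 0.759 for Ccl4), as did Cx3cl1 (r = 0.956), and with that of the monocyte and macrophage markers (r = 0.848, 0.855, 0.811 and 0.854 in the same order). The part of such cells in these values was not tested.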

How the data were processed

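Per the submitters' processing notes, reads were trimmed with Trim Galore 0.6.4 and quantified with Salmon 1.0.0 on mm10. For each gene symbol the authors deposited raw estimated counts, in 1 table for TECs and another for PMN. A spreadsheet program had altered the PMN table, so that 3.20% of the deposited cells (unit listed as other) carried extra points and 0.391% were dates, and both were decoded. Its 2 columns per library (r = 0.995 to 0.996 on the log2 scale) were averaged to 1 replicate. Estimated counts were rounded. No per-sample column was left unused.

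edgeR 4.0.16 (R 4.3.3) was used with TMM scaling, filterByExpr and the quasi-likelihood test on the 3 glutamine and 3 vehicle libraries of each table, with Benjamini-Hochberg adjustment over 14734 genes in TECs and 10130 in PMN at 0.05. DESeq2 1.42.0 and limma 3.58.1 were alternatives, beside other scalings, no filter and fits without each library. The labels do not say whether PMN libraries came from separate mice, so p-values measure the spread between libraries, which may be technical. A group at 0 counts was set to 3 counts per library for ratios. Scripts were tested on simulated data. With 200 genes changed 4-fold, the edgeR fit called 60% of them in TECs and 0% in PMN. A missing call or a high adjusted p in PMN therefore says little, even about a 4-fold change. The genes named are the 10 members, their receptors, the 2 most abundant genes or those past the threshold of each pathway list, and the closest genes by r. The values of 2 listed genes are not reported here. Members and lists were chosen with earlier results of these data known. Positions are from GENCODE M21.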

Additional observations from a re-analysis of the deposited data

How the results depend on the processing

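No paired analysis was possible because TEC vehicle and glutamine libraries have only replicate number 3 in common, and the PMN labels carry no replicate number. In TECs, DESeq2 called 190 genes and the fit with no expression filter 425, against 0 in edgeR, and leaving out 1 library gave 0 to 36 (36 without glutamine replicate 2, 4 without vehicle replicate 5). In PMN DESeq2 called 304, and every other setting, leaving out each library included, gave 0. The number of members with PMN above TEC was 9 under every setting, leaving out each library included. The TEC order per length and the ratios without TEC vehicle replicate 3 were added after seeing the data, as was leaving out each library from the test between cell types, which could hardly pass with so few relabellings. No member was called under any setting. In TECs, library totals alone moved the median log2 fold change of all genes to -0.16, and the sign of Cxcl2 (-0.11), Cx3cl1 (-0.10) and Ccl9 (-0.08) turned. limma-voom turned Ccl4 (1.05), Ccl6 (0.68) and Ccl9 (-0.07) in TECs and Csf1 (0.12) in PMN, and upper-quartile scaling turned Ccl3 (0.04) and Ccl6 (0.07) in PMN. Leaving out each TEC library moved Cxcl2 from -0.21 to 0.38, Cxcl16 from -0.19 to 0.02, Cx3cl1 from -0.02 to 0.17, Ccl3 from -0.08 to 1.10, Ccl4 from -0.98 to 2.71, Ccl6 from -0.98 to 1.94, Ccl9 from -0.23 to 0.40 and Csf1 from -0.04 to 0.64. Leaving out each PMN library moved Ccl3 from -0.41 to 0.20, Ccl4 from -0.63 to 0.24, Ccl6 from -0.44 to 0.31 and Csf1 from -0.78 to 0.17, while Cxcl2 stayed above 0 (0.18 without glutamine replicate 1 to 0.55), as did Ccl9 (0.01 without glutamine replicate 1 to 0.67) and Cxcl16 (0.18 without vehicle replicate 1 to 0.90). The log2 ratio of PMN to TEC for Cx3cl1 ran from -3.52 without PMN vehicle replicate 2 to 0.68. The cause of these shifts was not tested. Depth limits Ccl2, Ccl4 and Csf1 in TECs, with at most 63 counts per library.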
